A study of Mus musculus with 4 samples.

Results

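The guanylate-binding proteins (GBPs) and the immunity-related GTPases (IRGs) are described here by 9 mouse genes, Gbp2, Gbp3, Gbp4, Gbp5, Gbp6, Gbp7, Gbp9, Irgm1 and Igtp, in mammary tumour cells with and without transduced Jagged1. The members were taken by gene symbol, and all 9 of them were among the 33677 rows of the count table and passed the filter on low counts, with 13299 genes tested in all. The samples were cultured PyMT-A cells, a mammary tumour line of the FVB/NJ strain named after the polyoma middle T oncogene. PyMT-A-Vector cells had been infected with PMSCV-puro virus, an empty retroviral vector, and PyMT-A-Jagged1 cells with PMSCV-Jagged1 virus, which carries the Notch ligand Jagged1. Each line gave 2 libraries of poly(A) RNA, called vector 1 and 2 and Jagged1 1 and 2, and both lines were grown in the same medium with serum. The sources used here do not say whether either line is a single clone or whether the libraries of a line came from separate cultures. What the p-values measure is thus the spread among these 4 libraries alone, which may be technical.

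GBPs are large GTPases of the dynamin superfamily, and IRGs are smaller GTPases that work beside them. Interferons, above all interferon gamma, switch on both families, in part through the transcription factor IRF1. The proteins gather on the vacuoles of intracellular microbes, disrupt those membranes and help to start inflammasome signalling. Irgm1 and Igtp (also called Irgm3) are regulatory IRGs that sit on the cell's own membranes and hold the effector IRGs, such as those encoded by Iigp1 and Tgtp1, in an inactive state.

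In Jagged1 cells all 9 members had lower mean levels than in vector cells. Of all tested genes 50.5% had a negative log2 fold change (Jagged1 minus vector). Without vector 2 only 6 of the 9 were negative. The size of the difference varied widely, and none of the 9 passed the threshold over all genes. Gbp4 stood 49.5% lower, and Gbp5, at very low counts, 64.1% lower. Gbp2 was 32.9% lower and Gbp3 18.1% lower. Gbp7 and Gbp9 were 4.45% and 5.44% lower, differences smaller than the spread between libraries. In Gbp2, Gbp3, Gbp4 and Gbp5, 4 of the 9, each Jagged1 library was lower than each vector library, which held for 15.1% of all tested genes, and in the other 5 the lines overlapped.

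The start regions of the genes were read first, because the members are known as interferon targets. RefSeq promoters (GRCm38.p6, 250 bases before to 50 after the RefSeq start) were matched by symbol for 6 of the 9 members: Gbp2, Gbp3, Gbp5, Gbp7, Irgm1 and Igtp. Each of the 6 held at least 1 match to GAAA, any 2 bases and GAAA again, the core of the interferon-stimulated response element (ISRE) bound by IRF family factors, searched on both strands. Over all 32851 promoters of this length, 3.44% held a match. Of 8 other GBP and IRG genes with a promoter entry, 5 held a match (Gbp2b, Irgm2, Tgtp1, Tgtp2 and 9930111J21Rik1). A match is a description of the letters and not a shown binding site. The windows below run 5′ to 3′ on the strand of the gene, with the ISRE match in capitals. They are shown because the same element stands before the RefSeq start of members with large and with small differences. It is read on the opposite strand (as TTTC, any 2 bases and TTTC) in the GBP genes and on the gene's own strand in the IRG genes.
Gbp2: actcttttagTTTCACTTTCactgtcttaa
Gbp5: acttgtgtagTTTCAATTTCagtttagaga
Gbp3: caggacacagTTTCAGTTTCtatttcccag
Gbp7: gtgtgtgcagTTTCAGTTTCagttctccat
Irgm1: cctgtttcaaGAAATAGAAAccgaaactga
Igtp: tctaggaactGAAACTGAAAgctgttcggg

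These windows lie at chr3:142620594-142620623 (Gbp2), chr3:142496759-142496788 (Gbp5), chr3:142559989-142560018 (Gbp3), chr3:142530273-142530302 (Gbp7), chr11:48871431-48871460 (Irgm1, minus strand) and chr11:58199512-58199541 (Igtp), the others on the plus strand. Between the match and the RefSeq start lay 49, 155, 35, 43, 20 and 24 bases in that order. By the GENCODE M21 gene models, whose starts differ, the matches of Gbp2, Gbp5 and Irgm1 lie inside the gene. Gbp3 and Irgm1 each held a second match that overlapped the first, and the second RefSeq start of Gbp3 had none. The gamma-activated site (GAS) TTCNNNGAA is an element of interferon gamma targets that reads the same on both strands. It was found in 3 of the 6 promoters (Gbp5, Gbp7 and Igtp), against 8.30% of all promoters. Of the 8 other GBP and IRG genes with an entry, 3 held it (Irgm2, Tgtp1 and Tgtp2). No GAS match overlapped an ISRE match in these 6 promoters.

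A pair of neighbouring genes on chromosome 3 is shown at greater length, since Gbp3 (both Jagged1 libraries lower) and Gbp7 (lines overlapping) share the 10 ISRE letters TTTCAGTTTC. The stretches are chr3:142559794-142560025 for Gbp3 and chr3:142530086-142530335 for Gbp7, plus strand, with ISRE and GAS matches in capitals.
Gbp3: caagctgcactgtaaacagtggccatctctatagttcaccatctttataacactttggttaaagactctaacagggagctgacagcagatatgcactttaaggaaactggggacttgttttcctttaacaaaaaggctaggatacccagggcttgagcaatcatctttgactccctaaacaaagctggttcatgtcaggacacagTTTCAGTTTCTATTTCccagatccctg
Gbp7: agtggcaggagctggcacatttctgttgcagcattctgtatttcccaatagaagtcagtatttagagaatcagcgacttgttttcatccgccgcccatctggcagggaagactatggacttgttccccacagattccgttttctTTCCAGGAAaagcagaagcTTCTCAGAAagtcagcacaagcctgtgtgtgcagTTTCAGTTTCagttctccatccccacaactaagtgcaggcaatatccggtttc

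The capitals in the Gbp3 stretch are 2 overlapping ISRE matches, and those in the Gbp7 stretch are 2 GAS matches followed by 1 ISRE match. All 6 members with a promoter entry held an ISRE match, so having one could not separate members whose lines overlapped from the others. The part of these letters in the levels was not tested.

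Library totals ranged from 12136227 to 20835208 counts, and 3 counts, taken as the floor of detection for counting error only, corresponded to 0.145 to 0.244 CPM (counts scaled to a common library size, with TMM factors). Jag1, the transduced gene, was at 10.5 and 9.12 CPM in vector and at 275 and 324 CPM in Jagged1 cells, and it was the 1 gene called by edgeR (adjusted p = 0.0111). Luminal epithelial markers summed to between 3479.8 and 3890.4 CPM in every library, with Krt19 at 0 counts in 3 of 4. The 5 basal epithelial markers summed to 459.5 and 233 CPM in vector 1 and 2 and 749 and 376.7 CPM in Jagged1 1 and 2, mostly from Krt14. The 12 leukocyte markers summed to 1.78 to 11.4 CPM. Of these 12, Cd3e, Cd4 and Cd8a were at 0 in all libraries, and the macrophage gene Lyz2 had 0 and 71 counts in vector 1 and 2 and 0 and 89 in Jagged1 1 and 2. The 6 fibroblast markers summed to 4.43 and 7.0 CPM in vector and 10.5 and 63.2 CPM in Jagged1 cells, highest in Jagged1 2. The part of any of these cell types in the results was not tested. In such bulk libraries fewer cells of a type and less RNA per cell cannot be told apart.

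Levels between genes were compared per kilobase of exon of the GENCODE M21 annotation, which may differ from the authors' gene models. In vector cells Gbp3 was the most abundant member at 116 ± 13.8 CPM per kilobase (SD, n = 2), followed by Igtp (92.2 ± 15.2), Gbp2 (77.9 ± 16.8) and Gbp9 (63.1 ± 17.0). The libraries of Igtp and Gbp2 overlapped on this scale, as did those of Gbp2 and Gbp9, so the order within those pairs is not fixed. Irgm1 (41.8 ± 1.65), Gbp7 (21.9 ± 3.74) and Gbp4 (9.51 ± 0.612) followed, each apart from its neighbours. Gbp6 (0.908 ± 0.437) and Gbp5 (0.375 ± 0.0940) were the least abundant members, and their libraries did not overlap with each other. The level of Gbp6 is uncertain, since 70.7% of its 50-base transcript stretches were also found in transcripts of other genes. In Jagged1 cells the order was the same except that Gbp9 (59.7 ± 3.80 CPM per kilobase) stood above Gbp2 (52.3 ± 2.30), without overlap.

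Gbp4 showed the clearest difference relative to its error. It lies in the GBP cluster of chromosome 5 (chr5:105115767-105139586, minus strand, protein coding) and encodes a GBP without the prenylation signal of Gbp2 and Gbp5. The Gbp4 gene model overlaps those of Gbp8 and Gbp9 on the same strand, and how reads in the overlap were assigned is not given. The level of Gbp4 was 68.0 and 74.5 CPM in vector 1 and 2 and 37.0 and 35.0 CPM in Jagged1 1 and 2. Both Jagged1 libraries stood well below both vector libraries, and the libraries of each line lay close together. The means were 71.3 ± 4.58 and 36.0 ± 1.38 CPM (SD, n = 2 per line), a log2 fold change of -0.98 ± 0.15 (SE; edgeR adjusted p = 0.712). By unadjusted p (0.000947) Gbp4 ranked 17th of the 13299 genes tested, and by size of change 468th. With 1 library left out its value stayed between -1.03 and -0.93.

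Gbp4 was the 1 member that any alternative test called. DESeq2 gave an adjusted p of 0.00521, where 0.211% of all genes were called lower, and edgeR without the low-count filter gave 0.00179, where 0.276% were called lower. Without Jagged1 1 the edgeR adjusted p was 0.0295, where 0.365% of genes were called lower. Over its 11 alternatives the adjusted p of Gbp4 ran from 0.00179 to 1.00.

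Gbp5, known for promoting assembly of the NLRP3 inflammasome in macrophages, was rarely read in these tumour cells. The gene (chr3:142493978-142522344, plus strand) had 31 and 36 counts in vector 1 and 2 and 16 and 14 counts in Jagged1 1 and 2. On the scaled level these were 2.05 and 2.93 CPM against 0.774 and 1.01 CPM, so both Jagged1 libraries were lower although the Jagged1 1 library was the deepest of the 4. Its log2 fold change was the largest of the members and also the least precise, -1.48 ± 0.46 (SE; edgeR adjusted p = 0.9999, unadjusted p = 0.0213).

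Gbp2, a GBP that carries a prenylation signal and is recruited to bacterial and parasite vacuoles, lies on chromosome 3 (chr3:142620602-142638008, plus strand). It was at 226 and 166 CPM in vector 1 and 2 and at 136 and 127 CPM in Jagged1 1 and 2. The Jagged1 libraries were both lower, but the vector libraries lay further apart than vector 2 lay from either Jagged1 library. The log2 fold change was -0.58 ± 0.20 (SE; edgeR adjusted p = 0.9999, unadjusted p = 0.0298), and it was -0.32 without vector 1 against -0.79 without vector 2.

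Gbp3 (chr3:142560026-142573209, plus strand), the most abundant member, also separated the lines, by less. Its level was 412 and 348 CPM in vector and 339.9 and 283 CPM in Jagged1 cells. Both Jagged1 libraries were the lower ones, with vector 2 and Jagged1 1 close together. Its log2 fold change was -0.29 ± 0.18 (SE; edgeR adjusted p = 0.9999), with nearly equal differences within library number 1 (-0.28) and number 2 (-0.30). Without vector 1 it was -0.14 and without Jagged1 2 it was -0.16.

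Among the chromosome 3 members, Gbp7 (chr3:142530342-142550149, plus strand) had the value nearest to 0. Its level was 108 and 138 CPM in vector 1 and 2 and 128 and 107 CPM in Jagged1 1 and 2, so the lines overlapped. The log2 fold change was -0.07 ± 0.19 (SE; edgeR adjusted p = 0.9999), with 0.24 within library number 1 and -0.37 within number 2. Its sign turned when vector 2 (0.11) or Jagged1 2 (0.06) was left out.

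On chromosome 5, Gbp9 (chr5:105077630-105139539, minus strand) did not separate the lines. It was at 264 and 388 CPM in vector and 295 and 323 CPM in Jagged1 cells, with both Jagged1 values inside the range of the vector values. The log2 fold change was -0.08 ± 0.22 (SE; edgeR adjusted p = 0.9999), and 0.22 without vector 2. This differs in size from Gbp4, whose coding sequence is 90.6% identical to that of Gbp9 over aligned bases. The difference between the changes of Gbp4 and Gbp9 was not tested. Their gene models overlap on the same strand, so both counts depend on how reads in the overlap were assigned.

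Gbp6 (chr5:105270702-105293698, minus strand) was low and depended on 1 library. Its counts were 54 and 89 in vector 1 and 2 and 83 and 56 in Jagged1 1 and 2, which is 3.57 and 7.25 CPM against 4.02 and 4.04 CPM. Vector 2 was high, and vector 1 lay below both Jagged1 libraries. The log2 fold change of -0.42 ± 0.43 (SE; edgeR adjusted p = 0.9999) was 0.17 without vector 2 and -0.82 without vector 1.

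**Figure D1:**
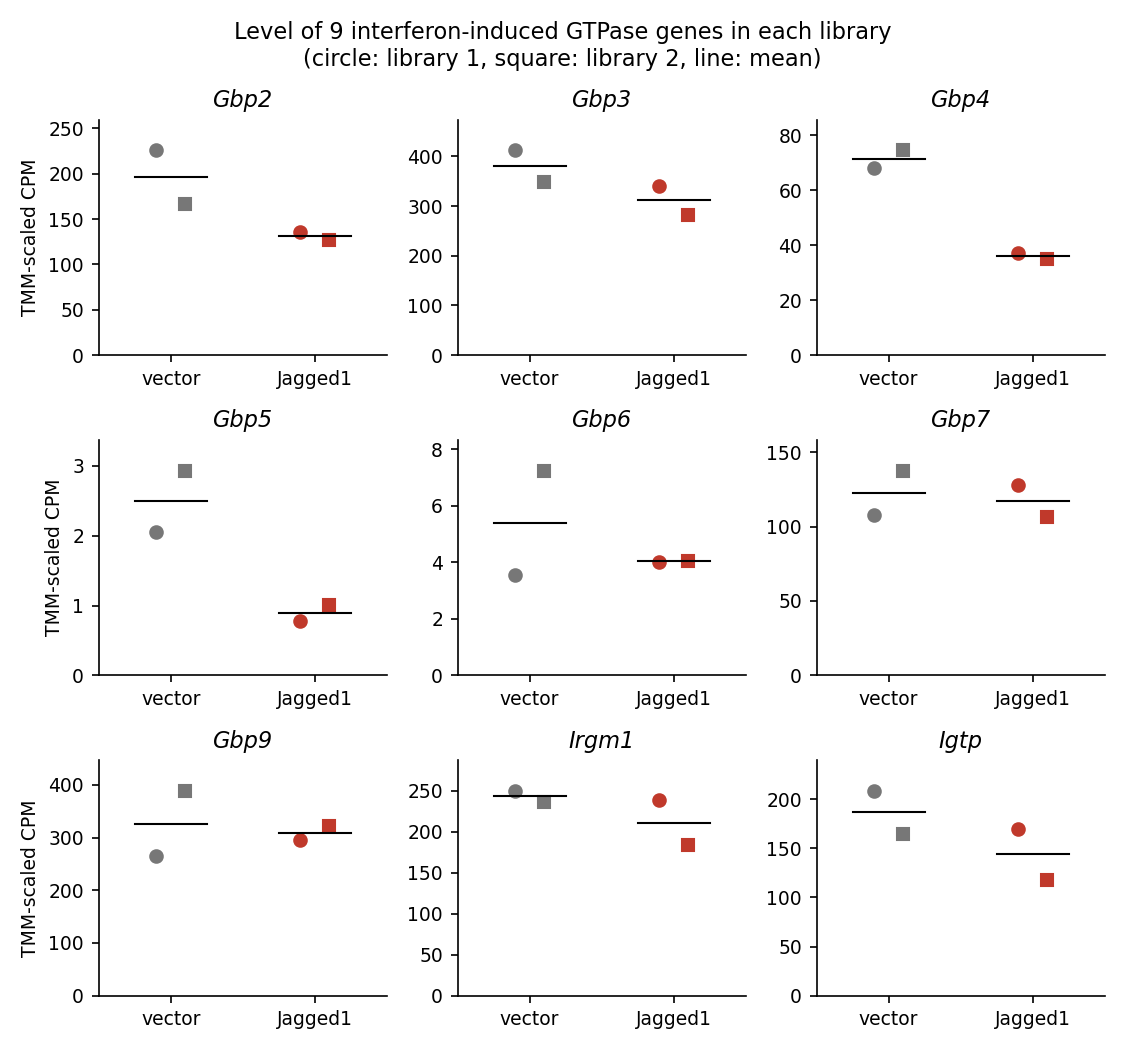
TMM-scaled CPM (vertical axes, from 0) of the 9 members in the 2 vector libraries (grey) and the 2 Jagged1 libraries (red), with circles for library 1, squares for library 2 and lines for the mean of a line. The red points lie below both grey points in the panels of Gbp2, Gbp3, Gbp4 and Gbp5, and the closest replicates beside a wide gap are those of Gbp4, at 68.0 and 74.5 against 37.0 and 35.0 CPM.

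Irgm1 and Igtp, the regulatory IRGs, were abundant in both lines. Irgm1 (chr11:48861968-48871683, minus strand) was at 249.6 and 236 CPM in vector and 238 and 183 CPM in Jagged1 cells. Jagged1 1 lay between the vector libraries and Jagged1 2 below them, and with raw library totals in place of TMM scaling both Jagged1 libraries (236 and 187 CPM) lay just under both vector libraries (242 and 239 CPM). Its log2 fold change was -0.20 ± 0.18 (SE; edgeR adjusted p = 0.9999), -0.41 without Jagged1 1 and -0.03 without Jagged1 2.

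Igtp (chr11:58199556-58207591, plus strand) was at 208 and 165 CPM in vector and 170.0 and 117 CPM in Jagged1 cells. Only Jagged1 2 was below both vector libraries, while within each library number the Jagged1 library was the lower, by 0.29 and 0.49 on the log2 scale. The log2 fold change was -0.38 ± 0.24 (SE; edgeR adjusted p = 0.9999), -0.13 without Jagged1 2 and -0.67 without Jagged1 1.

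Summed over the 9 members, the level was 1542 and 1526 CPM in vector and 1348 and 1180.0 CPM in Jagged1 cells. The median log2 fold change of the members was -0.38, against -0.00251 over all 13299 genes, and it was -0.16 without Jagged1 2. Medians within library numbers 1 and 2 were -0.28 and -0.38. The members with a negative value numbered 9 of 9, where 50.5% of all tested genes were negative, with 6 of 9 without vector 2 (Gbp6, Gbp7 and Gbp9 then above 0; 49.2% of all genes) and 8 of 9 without Jagged1 2 (50.6% of all genes). The Jagged1 libraries were both lower than either vector library in 4 of 9 members, against 15.1% of all genes, and both higher in 0 of 9, against 13.9%.

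Of the 9 members 0 were called by edgeR's quasi-likelihood test, where 0.00752% of all genes (1 of 13299) were. At an unadjusted p under 0.05 there were 3 (Gbp2, Gbp4 and Gbp5), all lower, where 2.15% of all genes were lower at that level. DESeq2 called 1 member, lower, where 0.211% of all genes were called lower. With limma-voom 0 members were called, where 0.00752% of all genes (1 of 13299) were. With 2 libraries a line, the smallest p of an exact permutation test (two-sided) would be 0.333, and none was run.

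**Figure D2:**
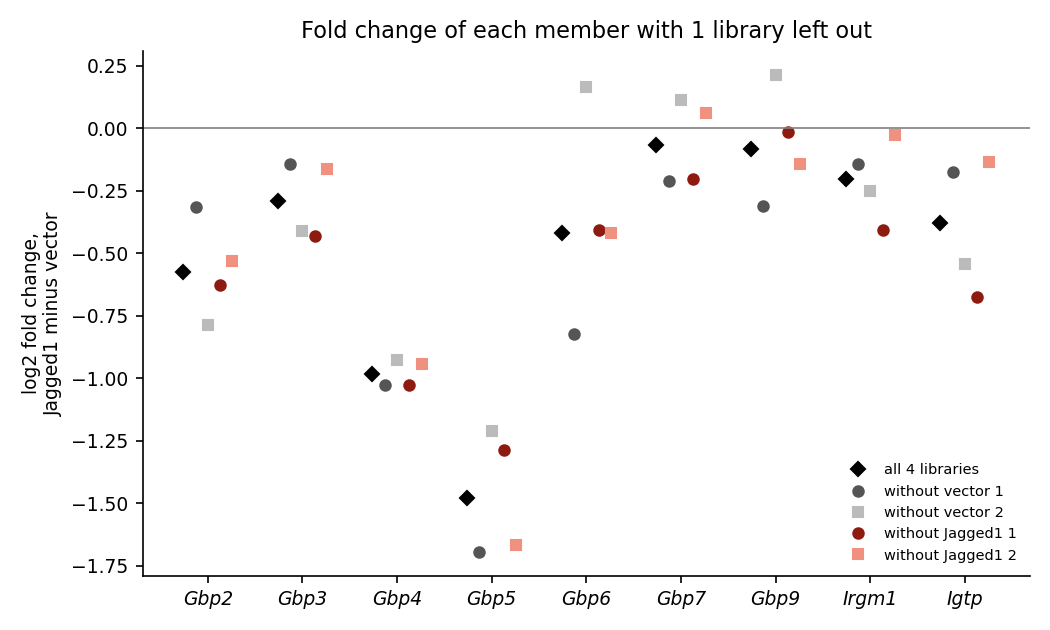
Log2 fold change, Jagged1 minus vector (vertical axis), of each member (horizontal axis) from all 4 libraries (black diamonds) and with each library left out in turn (circles and squares). Gbp4 and Gbp5 stay below -0.9 in every case, whereas Gbp6, Gbp7 and Gbp9 come out above 0 without vector 2.

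Near copies among the genes limit how far reads can be placed. Of the 50-base stretches in the GENCODE M21 transcripts of each member, the share also found in transcripts of another gene was 0.379% for Irgm1, 1.44% for Gbp5, 2.03% for Gbp2 and 3.75% for Gbp3. It was 7.78% for Gbp4, 8.05% for Gbp9, 11.8% for Igtp (all with Irgm2, whose model overlaps it) and 12.7% for Gbp7 (10.5% with the pseudogene Gm43802). For Gbp6 it was 70.7%, and its counts are the least certain. Of all Gbp6 stretches 65.0% were also in Gm43302, a model that overlaps Gbp6 on the same strand, and 45.9% in Gbp10. Coding sequences of the 7 GBP members were 65.8 to 90.9% identical in pairs, and the 3 pairs among Gbp4, Gbp6 and Gbp9 were the closest at 90.6 to 90.9%. GBP against IRG pairs gave 65.9 to 68.3%, the level this alignment gives to genes of different families. How multi-mapping reads were treated is not given in the sources used here.

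The reads of each GBP cluster were also summed to 1 row, which does not depend on how the counted reads are divided among the summed genes. Reads shared among the summed genes, or with gene models outside the sum such as Gm43302, can still be missing from it. How such reads were treated is not given. The 5 genes of the chromosome 3 cluster (Gbp2b, Gbp2, Gbp3, Gbp5 and Gbp7) summed to 750.5 and 659 CPM in vector and 607 and 522 CPM in Jagged1 cells, a log2 fold change of -0.32 ± 0.17 (SE). Its lines did not overlap. The 6 genes of the chromosome 5 cluster (Gbp4, Gbp6, Gbp8, Gbp9, Gbp10 and Gbp11) summed to 364 and 504 CPM against 356 and 384 CPM, a log2 fold change of -0.23 ± 0.21 (SE), and its lines overlapped. Gbp9 supplied most of that sum.

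The remaining GBP and IRG genes were described from a list of 20. Of these 15 were in the table and 12 were tested, with 10 lower (50.5% of all genes were), 2 higher and 0 called, and a median log2 fold change of -0.49. In 5 of them (Gbp8, Gbp10, Irgm2, Tgtp2 and Ifi47) the lines did not overlap and the Jagged1 libraries were the lower, against 15.1% of all genes, with 0 of the 5 passing the test. Irgm2, the third regulatory IRG, was the most abundant of them, at 225 and 203 CPM in vector and 190 and 159 CPM in Jagged1 cells (-0.30 ± 0.17, SE); its lines did not overlap.

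The effector IRGs were lower in abundance and varied more. Iigp1 was at 98.8 and 135 CPM in vector and 101 and 76.1 CPM in Jagged1 cells (-0.40 ± 0.23, SE), with overlap. Tgtp2, one of a pair of near-identical copies, was at 2.58 and 8.79 CPM against 0.726 and 1.81 CPM, and its log2 fold change of -2.18 ± 0.77 (SE) was the largest in the list. Its copy Tgtp1 was at 6.41 and 12.5 CPM against 3.05 and 6.43 CPM (-1.01 ± 0.51, SE). In both genes library 2 of a line was well above library 1, and the division of reads between the copies is uncertain.

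Ifi47 was at 43.4 and 34.5 CPM in vector and 34.2 and 18.2 CPM in Jagged1 cells (-0.57 ± 0.33, SE). Among the other GBPs, Gbp10 was at 23.4 and 30.7 CPM against 17.6 and 20.1 CPM (-0.52 ± 0.21, SE) and Gbp8 at 4.16 and 2.61 CPM against 2.27 and 2.17 CPM (-0.61 ± 0.41, SE), both without overlap. Gbp2b was at 2.51 and 3.91 CPM in vector and at 2.52 and 3.97 CPM in Jagged1 cells (0.01 ± 0.44, SE). Library 2 was thus the higher in each line, at only 38 to 55 counts, and this difference was not tested. Gvin1, a very large GTPase, had the 1 other value above 0 (0.25 ± 0.39, SE). Negative values were also found for 9930111J21Rik2 (-1.66 ± 1.04), F830016B08Rik (-0.46 ± 0.76) and Irgq (-0.10 ± 0.24). Gbp11, with 3 to 6 counts a library, and 9930111J21Rik1, with 4 to 18, did not pass the filter, and Irgc1, named although it had no count, was at 0 in all 4 libraries.

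**Figure D3:**
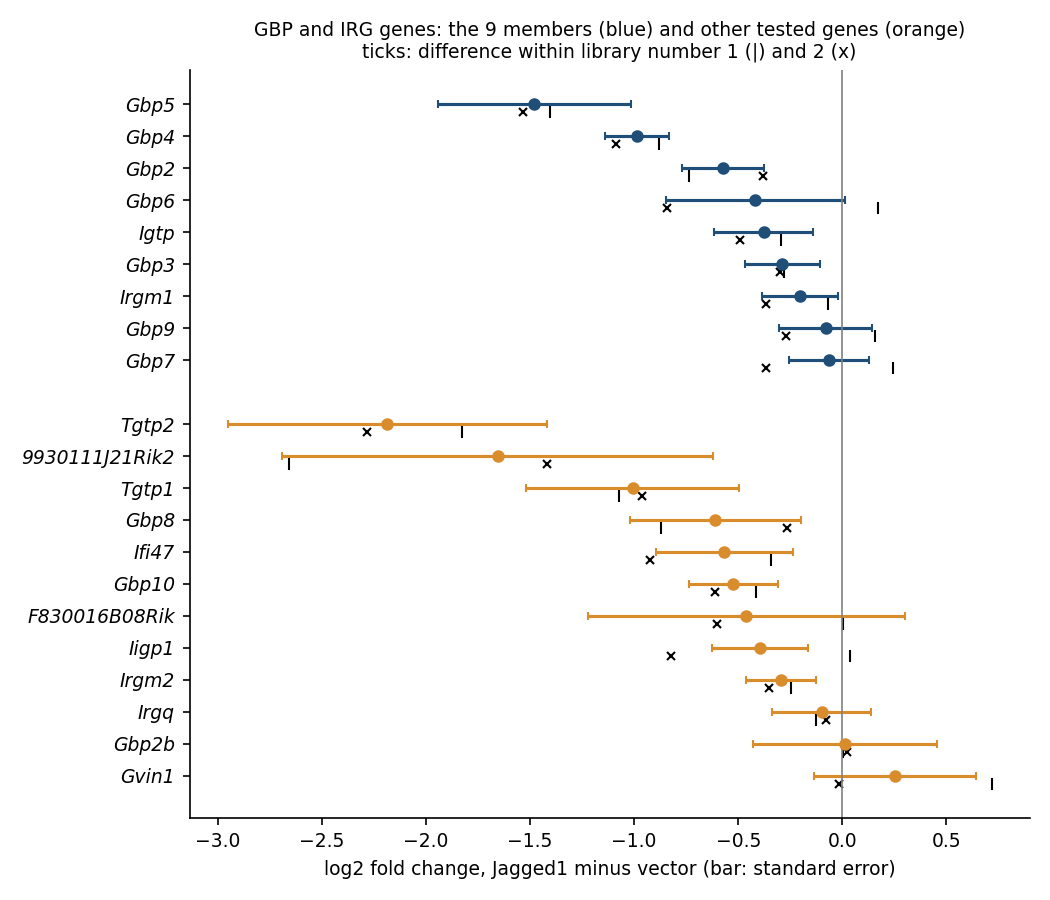
Log2 fold change, Jagged1 minus vector (horizontal axis), with its standard error for the 9 members (blue) and the 12 other tested GBP and IRG genes (orange), with the differences within library number 1 (vertical ticks) and number 2 (crosses). Of the 21 genes 19 lie left of 0, and the bars are widest for genes with few counts such as Tgtp2.

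The genes that carry the interferon signal to the GBPs had mixed values. Of 23 listed genes 19 were tested, 8 higher and 11 lower, with a median log2 fold change of -0.07 and 0 called. Both Jagged1 libraries were lower than both vector libraries in 5 of the 19, against 15.1% of all tested genes. Both were higher in 3 of the 19, against 13.9%. Usp18, an interferon-induced brake on type I interferon receptors, had the lowest p of the list, at 316 and 319 CPM in vector and 238 and 226 CPM in Jagged1 cells (-0.45 ± 0.14, SE; edgeR adjusted p = 0.9999, unadjusted p = 0.0222). Stat2 stood at -0.34 ± 0.24, Irf9 at -0.07 ± 0.14, the kinase gene Jak1 at -0.14 ± 0.18 and the phosphatase gene Ptpn11 at -0.09 ± 0.19. Stat3, which carries signals of the interleukin 6 family, was at 235 and 225 CPM in vector and at 263 and 481 CPM in Jagged1 cells (0.69 ± 0.30, SE), highest in Jagged1 2.

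Irf1, chosen after its values were seen because its product is a known activator of GBP genes, had lower values without overlap. Its level was 113 and 78.3 CPM in vector against 77.7 and 70.6 CPM in Jagged1 cells (-0.37 ± 0.22, SE; edgeR adjusted p = 0.9999), with vector 2 and Jagged1 1 almost level. Ifng, the gene of interferon gamma, had 0 counts in every library, and Ifnb1, of interferon beta, had 10 and 5 counts in vector and 1 and 0 in Jagged1 cells, too few to be tested; both were named after their values were seen.

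Partners of the GBPs in inflammasome signalling and pyroptosis had a median of -0.29 over 12 tested of 15 listed genes, with 3 higher, 9 lower and 0 called. In 6 of the 12 both Jagged1 libraries were lower than both vector libraries, against 15.1% of all tested genes. In 2 of the 12 both were higher, against 13.9%. The nucleic acid sensor gene Zbp1, which is itself interferon-induced, was at 239 and 219 CPM in vector and 145 and 157 CPM in Jagged1 cells (-0.60 ± 0.15, SE; edgeR adjusted p = 0.925). Apol9b stood at -0.56 ± 0.17 and Apol9a at -0.45 ± 0.17, a pair of close copies. The galectin genes Lgals8 (-0.35 ± 0.14) and Lgals3 (-0.24 ± 0.18), which mark damaged vacuoles, and Casp8 (-0.14 ± 0.18) were also negative. At an unadjusted p under 0.05 stood Zbp1, Apol9a and Apol9b, lower, and Casp1, higher (0.50 ± 0.18, SE; edgeR adjusted p = 0.9999; named after its value was seen). Of all 13299 genes tested 286 were lower and 240 higher at that level. The sensor genes Aim2 and Nlrp3 and the adaptor gene Pycard were too low to be tested, with at most 9 counts a library, and were also named after their values were seen.

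The machinery that targets or anchors GBPs showed small values. For ATG8 conjugation, which directs GBPs and IRGs to vacuoles, 16 of 16 genes were tested with a median of -0.04, 7 higher, 9 lower and 0 called. In 4 of the 16 both Jagged1 libraries were lower than both vector libraries, against 15.1% of all tested genes. Among these 4 were Sqstm1 (-0.34 ± 0.20) and Trim21 (-0.29 ± 0.17). Map1lc3b (0.11 ± 0.28), Gabarap (0.04 ± 0.18), Ube2k (0.07 ± 0.15) and Gabarapl1 (0.24 ± 0.19) were above 0. The 6 genes for prenylation, which anchors Gbp2 and Gbp5 in membranes, had a median of 0.02, from Rce1 at -0.22 ± 0.16 to Pggt1b at 0.18 ± 0.20, with Icmt at -0.10 ± 0.18, Zmpste24 at 0.00191 ± 0.14, Fnta at 0.04 ± 0.16 and Fntb at 0.09 ± 0.16.

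Large GTPases of the same superfamily without known interferon induction served as a comparison by structure. Their 10 genes had a median log2 fold change of 0.03, with 6 higher, 4 lower and 0 called. In 1 of the 10 (Dnm2) both Jagged1 libraries were lower than both vector libraries, against 15.1% of all tested genes. In 0 of the 10 both were higher, against 13.9%. Atl3, an atlastin and thus a close relative of the GBPs that shapes the endoplasmic reticulum, stood at 0.04 ± 0.16. Dnm1l (0.06 ± 0.19), Opa1 (0.02 ± 0.15), Mfn1 (-0.01 ± 0.16) and Mfn2 (-0.14 ± 0.16), which divide or fuse mitochondria, lay close to 0, and Dnm2 stood at -0.20 ± 0.15. The difference between this list and the members was not tested.

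**Figure D4:**
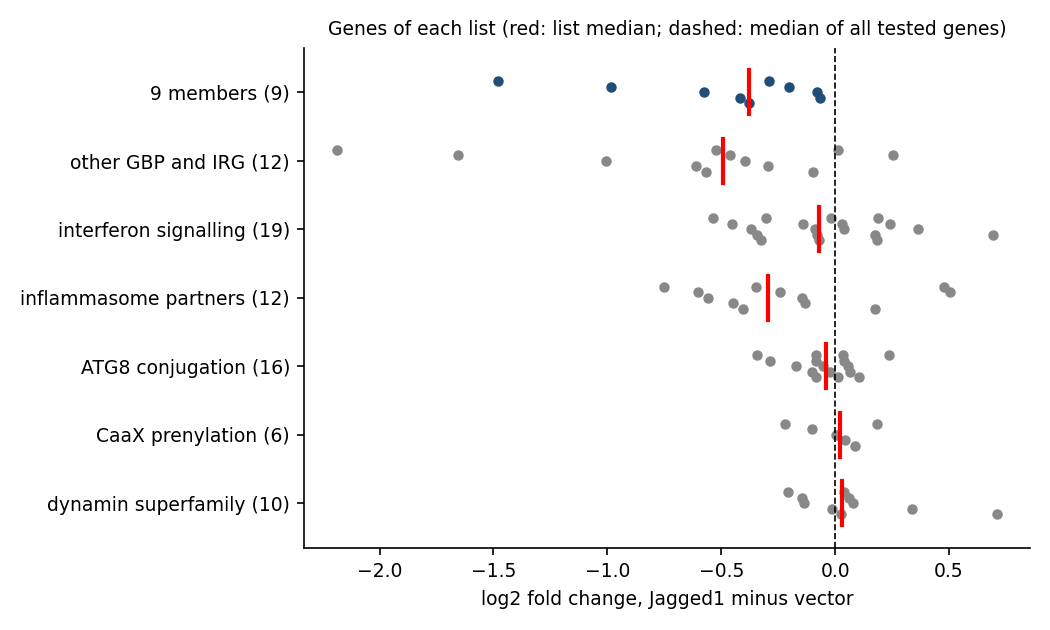
Log2 fold change, Jagged1 minus vector (horizontal axis), of every tested gene in each list (points, number tested in brackets), with the list median in red and the median of all 13299 genes as a dashed line. The medians of the members (-0.38) and of the other GBP and IRG genes (-0.49) are the lowest, followed by those of the inflammasome partners (-0.29), interferon signalling (-0.07), ATG8 conjugation (-0.04), prenylation (0.02) and the dynamin superfamily (0.03).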

How the data were processed

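The values are read counts per gene as the authors deposited them, whole numbers without normalization, in 1 column for each library. The submitters' processing notes name STAR 2.6.0c, featureCounts 1.6.2 and mm10 (GRCm38). They name neither the annotation release nor the strand setting, so whether reads of overlapping and antisense genes were kept apart is not known.

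Genes were filtered with filterByExpr (minimum count 10) and scaled by TMM. Jagged1 was tested against vector with edgeR 4.0.16 (quasi-likelihood F test, robust, legacy method, R 4.3.3), with Benjamini-Hochberg adjustment over 13299 genes and a threshold of 0.05. The SE is derived from the log2 fold change and F. Replicates differed beyond sampling noise (chi-square per degree of freedom 32.3 for vector, 50.6 for Jagged1). Alternatives used DESeq2 1.42.0, limma 3.58.1 (voom), other scaling and filters, summed clusters, a replicate block and each library left out. The fits were tested on simulated data.

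Members and lists were chosen with earlier results of these data known. Named were all members, every other GBP and IRG gene with a count, Jag1, and the 6 genes with most counts in each other list, besides genes said to be named after their values were seen, genes of the lists of cell type markers and the untested genes of a list. Transcripts and gene positions were those of GENCODE M21, and promoters those of RefSeq (GRCm38.p6).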

Additional observations from a re-analysis of the deposited data

How the results depend on the processing

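The number of genes called over all genes was 1 in the edgeR fit, 47 with DESeq2, 169 without the low-count filter and 17 with the replicate block, and it ran from 0 (without vector 1 or vector 2) to 193 (without Jagged1 1), with 49 without Jagged1 2. Members called numbered 1 (Gbp4) with DESeq2, 1 without the filter, and 0 to 1 with 1 library left out. The members' median ran from -0.43 to -0.16 with 1 library left out, lowest without Jagged1 1 and highest without Jagged1 2. The sign turned for Gbp6 (0.17), Gbp7 (0.11) and Gbp9 (0.22) without vector 2 and for Gbp7 (0.06) without Jagged1 2; the cause was not tested. Their lowest values were -0.82, -0.21 and -0.31, all without vector 1. The other 93 values of single members kept their sign. With a left-out library the lone sample of a line is assumed to vary like the other line. With the replicate number as a block 0 members were called and the adjusted p of Gbp4 was 0.0628. Differences between numbers 1 and 2 correlated across genes between the lines (r = 0.43), but the labels do not say that the numbers mark a pairing. With raw library totals 5 members had lines that did not overlap, in place of 4, and the share over all genes was not computed with these totals. Counts of 14 to 36 for Gbp5 and 54 to 89 for Gbp6 limit their precision.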

Other observations

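Several IRG genes differed between the libraries of a line, in the same direction in both lines. On the log2 scale, library 2 stood above library 1 by 1.77 in vector and 1.31 in Jagged1 cells for Tgtp2, by 0.97 and 1.08 for Tgtp1, by 1.99 and 1.38 for F830016B08Rik and by 1.76 and 3.0 for 9930111J21Rik2. These 4 genes, and Lyz2 below, were chosen after their values were seen. Gbp6 shared this difference in vector (1.02) but not in Jagged1 cells (0.01), and Gbp2 (-0.44 and -0.09) and Igtp (-0.34 and -0.54) had the opposite sign. The macrophage gene Lyz2 was also read only in the libraries numbered 2, with 71 counts in vector 2 and 89 in Jagged1 2, and its part in these values was not tested.

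The toll-like receptor gene Tlr4, which senses bacterial lipopolysaccharide, was higher in both Jagged1 libraries (37.6 and 50.3 CPM) than in both vector libraries (26.0 and 37.0 CPM), with a log2 fold change of 0.48 ± 0.25 (SE; edgeR adjusted p = 0.9999). Casp4, whose product binds lipopolysaccharide inside the cell after GBPs expose it, was at 3.31 and 6.51 CPM in vector and 2.56 and 6.43 CPM in Jagged1 cells, again apart by library number and not by line. Both genes were named after their values were seen.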
